A study of Bubalus bubalis with 8 samples.

Results

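The interferon response genes MX1, MX2, ISG15, RSAD2, IFIT2, IFI6, IRF1, IRF5 and IRF7 were followed in buffalo mammary epithelial cells (MECs) after a heat shock. They were chosen by gene name, as every probe on the array that carried the name of 1 of these 9 genes, out of 24839 gene names and 43653 probes outside the control spots. Of their 16 probes, 15 were used. The other, a probe of ISG15, lay in a patch of the array (rows 216 to 330, columns 30 to 59) that was dark in the control hybridisation.

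Primary MECs were grown from mammary tissue of 1 adult female riverine buffalo (Bubalus bubalis) and used at the 10th passage. Treated cells were held at 42°C for 1 h and then returned to 37°C. They were harvested at 7 times of recovery, from 30 min to 24 h, and the unstressed control (CTR) stayed at 37°C throughout. Each of the 8 conditions was hybridised to 1 bovine 4x44K array with 1 colour (Cy3), so the differences below could not be checked against replicates and carry no p-value.

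Interferons are secreted cytokines that bind paired receptors on the cell surface, and Janus kinases attached to these receptors then phosphorylate STAT proteins. Phosphorylated STATs enter the nucleus with interferon regulatory factors (IRFs) and switch on interferon-stimulated genes, most of which encode proteins that block virus entry, translation or assembly. Epithelial cells of the mammary gland carry these receptors. Several of the genes, IRF1 and IRF5 among them, are also active in leukocytes, and IRF1 responds to inflammatory signals such as NF-kB besides interferon.

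The probes are oligonucleotides of 60 bases designed on cattle sequence, so a weak signal may be a poor match to buffalo RNA as well as a low level, and the match to buffalo was not tested. Stretches of 30 bases are shown, 5′ to 3′, for the probes that carried the results and for pairs of probes that read the same stretch of a transcript, with the shared bases in capitals. Positions are those the array files give for the cattle build Btau_3.1.
ISG15, A_73_P122741, last 30 bases, chr16:48718914-48718973, minus strand: tgGATGATGAGCACCCGCTGGAGGAATACG
ISG15, A_73_119493, first 30 bases, chr16:48718882-48718941, minus strand: GATGATGAGCACCCGCTGGAGGAATACGgc
IRF7, A_73_P501988, first 30 bases, no position in the files: gaacagGCTGCCTAAGCCAGACCCCCAACC
IRF7, A_73_P050461, first 30 bases, no position in the files: GCTGCCTAAGCCAGACCCCCAACCCCTTCC
IRF1, A_73_102589, first 30 bases, chr7:20631179-20631238, plus strand: gcgccttggtgtgatttaaaattggaagta
IRF5, A_73_100589, first 30 bases, chr4:96143084-96143143, plus strand: tctggcagctacctcccttgagaaactaag
IFIT2, A_73_P060031, first 30 bases, chr26:11431248-11431307, plus strand: ggaagtgtgaagacaaggccatccaccatt
MX1, A_73_P110771, first 30 bases, chr1:144472241-144472300, plus strand: gtgccatacttgtgaatgcatacagaagcc
MX1, A_73_P098801, first 30 bases, chr1:144443520-144443579, plus strand: tggttcattctgacttgggtatcgaagaac

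The ISG15 probes shared 28 bases and the IRF7 probes 54, so neither pair is independent. The MX1 probe A_73_P098801 started 28721 bases from A_73_P110771, and the third, A_73_103867, only 197 bases from it. The second IRF1 probe, A_73_P102536, spanned 1337 bases of the genome and therefore crosses at least 1 intron. No gene annotation of Btau_3.1 was used, so exons and UTRs were not assigned. MX1 and MX2 are neighbours in the buffalo RefSeq annotation.

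Levels below are log2 intensities above the 75th percentile of the array, and a level of 1 probe is set only against the same probe on another array. A probe is called detected where its spot was well above background, or, for 30 min, where the level taken from the deposited values reached the detection limit of every other array. A gene counts as higher or lower where a probe differed at least 3-fold from CTR. A dim spot is set to the lowest detected value of its array, which makes the fold a lower bound. Where its own value is higher than that, the value is kept, and the fold is then measured from a dim spot and is no bound. The only error that can be given is the SD between repeated spots of 1 probe on an array, 0.30 to 0.47 on the log2 scale for a change, and it does not contain the spread between cultures. For 30 min the SD of the CTR array (0.21) stands in, since the scanner spots of the 30 min array, whose values were not used, had an SD of 1.65. Every error given for 30 min is therefore borrowed and was not measured on that array. The CTR, 8 h, 12 h and 24 h arrays were on 1 slide (slide 1) and the 30 min, 2 h, 4 h and 16 h arrays on another (slide 2), so slide and heat stress cannot be told apart where a slide 2 array is set against CTR.

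The 30 min and 2 h arrays stood apart from the rest, and they go against the label of an epithelial culture in their leukocyte genes. Of 34 probes for 15 leukocyte genes, 20 were at least 3-fold higher than CTR at 30 min and 20 at 2 h, none was lower on these 2 arrays, and the summed level of the list was 458 and 369 times the 75th percentile against 15.5 to 63.3 on the other 6 arrays. At 16 h, where the sum was 63.3, 7 of the 34 were higher. A list of 5 probes for plasmacytoid or B lineage genes went the other way, with a sum of 19.8 in CTR, 9.25 at 30 min and 7.54 at 2 h. Only 2 of these 5 probes were detected, and 1 of them, of TCF4, was lower at 30 min and 2 h. LAPTM5, a lysosomal protein of blood cells, was at least 125-fold higher at 30 min, with a bound of 114-fold for 2 h, and TYROBP, an adaptor of myeloid receptors, was at least 76.5-fold higher, with a bound of 52.4-fold for 2 h. CD68 (44.1-fold, from a dim CTR spot), CD14 (at least 35.0-fold) and CD53 (at least 31.8-fold) were also higher at 30 min and ITGB2 at 2 h (at least 36.8-fold). The defining leukocyte gene PTPRC was at least 7.40-fold higher at 30 min with its probe A_73_P072536. Its probe that was detected in CTR, A_73_P072546, was called higher at 4 h (1.68) and 16 h (1.65) and not at 30 min or 2 h. At 4 h, 2 of the 34 leukocyte probes were higher and 2 were lower, those of CD79A (-2.15) and LYZ (-1.93). In CTR only 5 of the 34 probes were detected, those of AIF1, CD79A, ITGB2, LYZ and PTPRC, 1 probe each, and all probes of LAPTM5, TYROBP, CD14, CD68, CD53, CSF1R, CD48, CORO1A and CD3E were dim. The summed level of 16 probes for epithelial genes was 659 in CTR, 225 at 30 min, 229 at 2 h and 329 to 518 on the other arrays, and KRT8, a luminal keratin, was lower than CTR on all 4 arrays of slide 2. At 16 h, 11 of 37 probes for fibroblast genes were higher, with DCN, the matrix proteoglycan decorin, at least 101-fold higher. The summed level of the fibroblast list was 334 at 16 h against 363 in CTR, and the 8 probes detected on both arrays had a median change of -0.40. Heat shock genes, a check of the treatment, had their highest sum at 8 h (1202), with 11 of 24 probes at least 3-fold higher than CTR. The sum was 339 in CTR, 537 at 30 min and 457 at 2 h, with 7 and 5 of the 24 probes higher. The probes detected on both arrays had a median change of 0.47 at 30 min and 0.11 at 2 h. At 4 h and 12 h the sum was 435 and 530, and at 16 h (266) and 24 h (225) it lay below CTR. The part of these cell types in the interferon response genes was not tested, and in bulk RNA more cells of a type cannot be told apart from more RNA per cell.

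**Figure D1:**
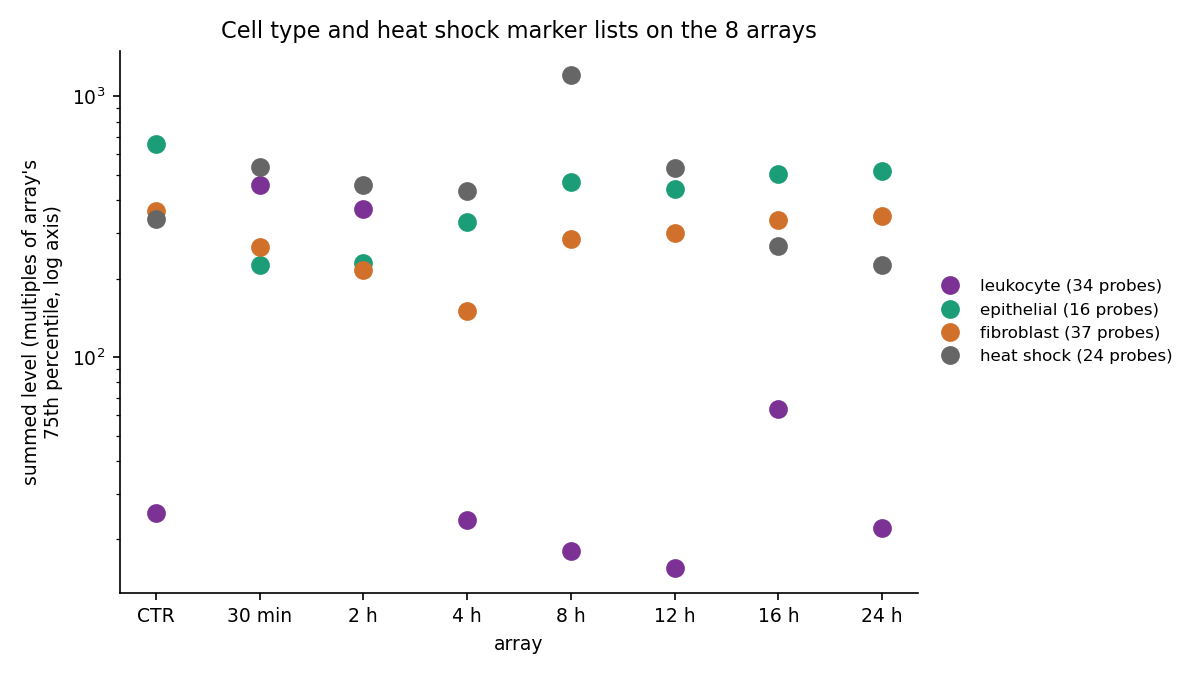
Summed level of the probes of 4 marker lists (y axis, multiples of the array's 75th percentile, log axis) on each of the 8 arrays (x axis), 1 point per list and array. The leukocyte list sits at 458 at 30 min and 369 at 2 h and at 63.3 or lower on the other arrays, and the epithelial list is lowest at 30 min and 2 h.

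Of the 9 interferon response genes, 5 (IRF1, IRF5, IFIT2, ISG15 and MX1) were at least 3-fold higher than CTR at 30 min, and the first 4 of them also at 2 h. IRF1 was again higher at 16 h. At the other 4 times no member passed 3-fold, and no member was 3-fold lower at any time. Without the 30 min and 2 h arrays, 1 of the 9 genes, IRF1, remained. Counted in probes, as the shares below are, 5 of the 15 member probes were higher at 30 min, 4 at 2 h and 1 at 16 h. Over all probes on slide 2, the share called higher was 2.31% for 30 min, 2.17% for 2 h, 1.02% for 4 h and 1.84% for 16 h, and on slide 1 it was 0.164% for 8 h, 0.0571% for 12 h and 0.0273% for 24 h. The share of all probes called lower was 1.40%, 3.17%, 2.05% and 1.64% for the same arrays of slide 2, and 0.0571%, 0.154% and 0.172% for those of slide 1. Of the 15 member probes, 7 were detected on all 8 arrays, 4 on some and 4 on none. Among the 7 detected in CTR, the median change was 0.94 (log2) for 30 min, 0.74 for 2 h, 0.056 for 4 h and 0.52 for 16 h, and on slide 1 it was -0.27 for 8 h, -0.37 for 12 h and 0.61 for 24 h. All detected probes had medians of -0.22, -0.41, -0.18 and -0.012 on the same arrays of slide 2, and of -0.13, -0.29 and -0.13 on those of slide 1. With this scaling the 16 h and 24 h medians of the members were thus near that of 2 h. The median of all detected probes was lower at 2 h (-0.41) than at 16 h (-0.012) or 24 h (-0.13), and the median scaling moves the 3 arrays apart. Scaling each array to its median, which lies among dim spots since only 23.0% to 40.1% of probes were detected, moved the median change of all detected probes by 0.70 (log2) at 2 h, by 1.09 at 4 h and by -0.43 at 24 h. With it, ISG15 and IRF1 passed 3-fold at 4 h and MX1 at 2 h (1.81), so small differences below are to be read against this shift. The 30 min changes are tied to CTR by the deposited values and do not move with the scaling.

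**Figure D2:**
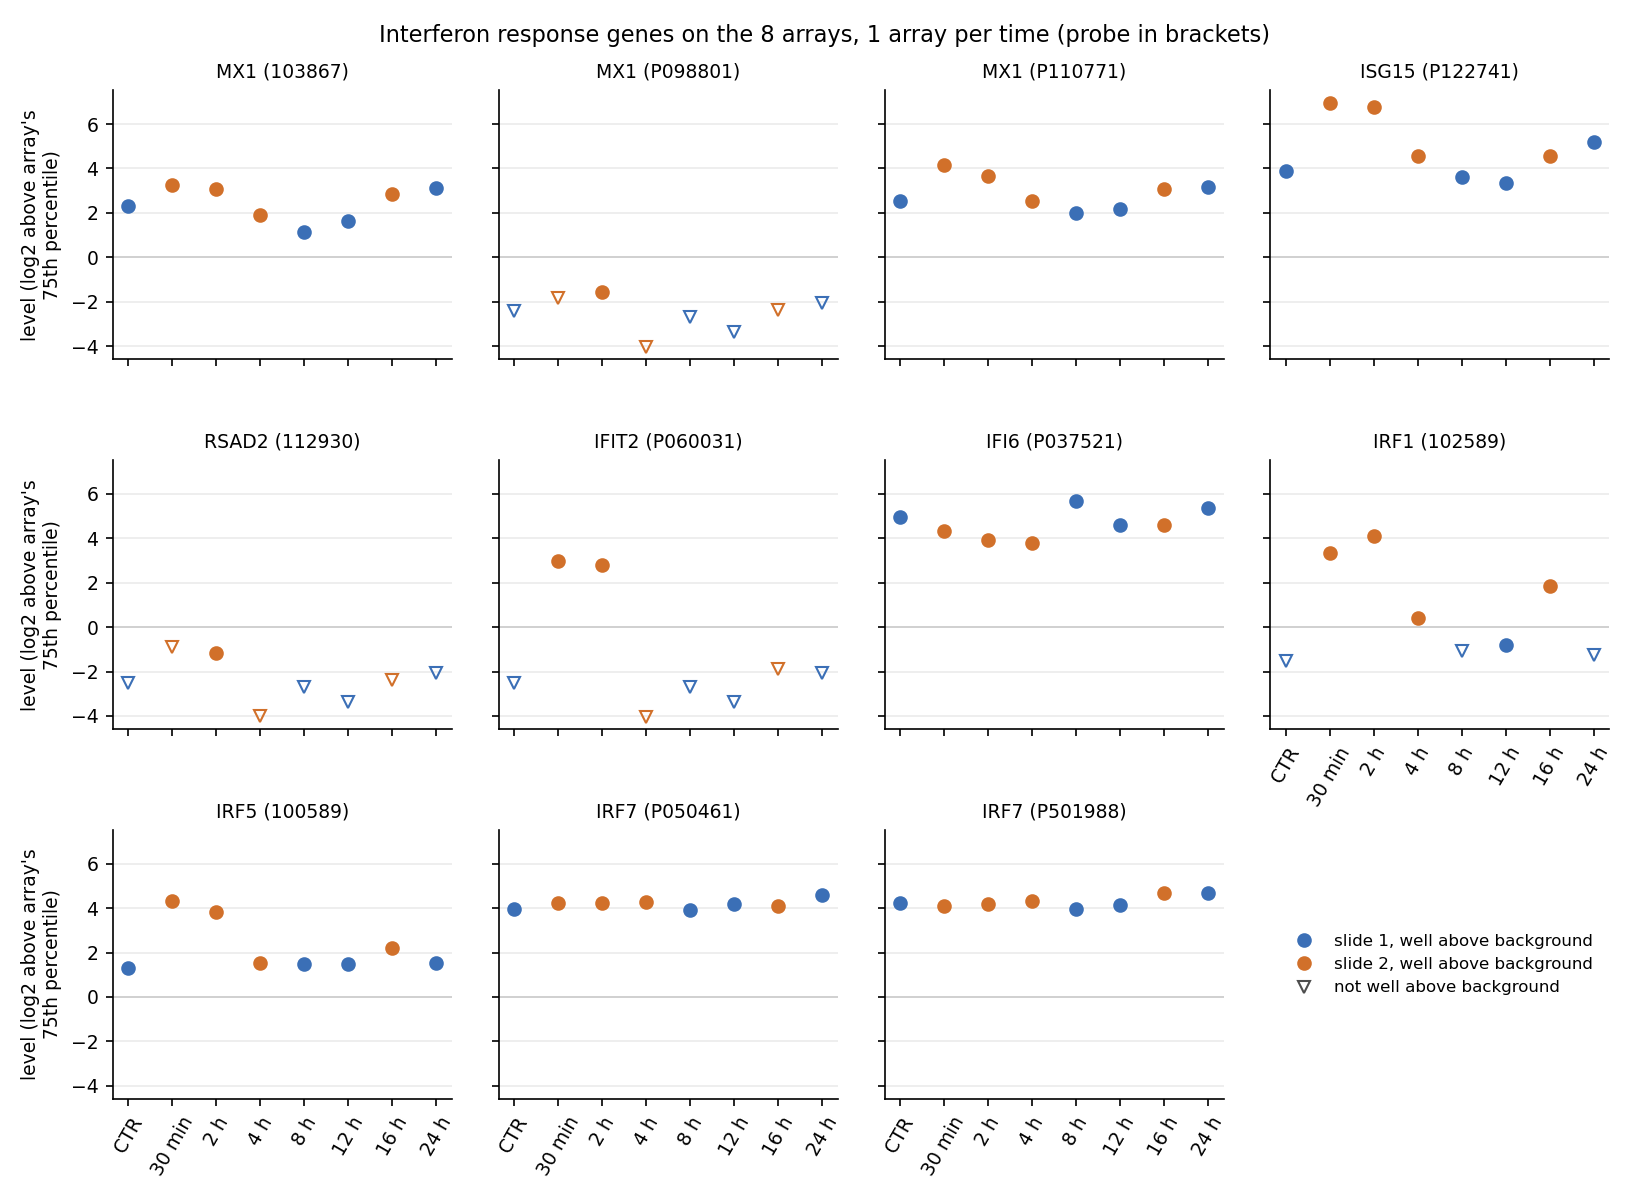
Level of each of the 11 detected member probes (y axis, log2 above the array's 75th percentile) on the 8 arrays (x axis), 1 array per time, with filled circles for spots well above background and open triangles for dim ones, coloured by slide. IRF1, IRF5, IFIT2 and ISG15 are high at 30 min and 2 h and lower again at 4 h, while each IRF7 probe stays within a range of 0.73.

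IRF1, a transcription factor induced by interferon gamma, was called at 3 times. On slide 2 its level (A_73_102589) was 3.36 after 30 min, 4.10 after 2 h, 0.40 after 4 h and 1.87 after 16 h, and on slide 1 it was -1.54 in CTR, -1.08 after 8 h, -0.81 after 12 h and -1.26 after 24 h. The spot was detected on all 4 arrays of slide 2, and on slide 1 on the 12 h array alone. IRF1 was thus at least 15.4-fold higher than CTR after 30 min. The bound was 25.7-fold for 2 h, 1.98-fold for 4 h and 5.47-fold for 16 h. Among the arrays with a detected spot, the levels ranked in the order 2 h, 30 min, 16 h, 4 h and 12 h with each step beyond 2 spot errors, but with normexp 30 min (2.83 above 16 h) lay above 2 h (2.64 above 16 h). Bright spots near this probe were 0.59 (log2) darker in CTR than on the other arrays, and the CTR level raised by this amount would still lie below the detection limit of -0.59 that sets the bound. The second IRF1 probe was dim on all 8 arrays.

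Within slide 2, IRF1 at 2 h was 2.23 ± 0.49 (log2, SD between spots, 1 array each) above 16 h and 3.70 ± 0.35 above 4 h. At 30 min it was 1.49 ± 0.47 above 16 h, just under 3-fold (1.49 to 2.83 over all scalings).

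IRF5, which acts downstream of Toll-like receptors and is strongly expressed in myeloid and B cells, was detected on all 8 arrays. On slide 2 its level was 4.32 after 30 min, 3.83 after 2 h, 1.54 after 4 h and 2.23 after 16 h, and on slide 1 it was 1.32 in CTR, 1.50 after 8 h, 1.49 after 12 h and 1.51 after 24 h. The change from CTR was 3.00 ± 0.30 (7.97-fold) at 30 min and 2.51 ± 0.33 (5.69-fold) at 2 h, with the 30 min error taken from CTR, and the other 5 changes lay between 0.16 and 0.90. The step from 2 h down to 16 h was the only step between neighbours in the order that exceeded 2 spot errors. Against 16 h on the same slide, IRF5 was 2.09 ± 0.47 higher at 30 min and 1.60 ± 0.49 higher at 2 h.

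IRF7, the master regulator of type I interferon genes, was detected by both of its probes on all 8 arrays and passed 3-fold at no time. Its probe A_73_P050461 read 4.25 after 30 min, 4.25 after 2 h, 4.29 after 4 h and 4.10 after 16 h on slide 2, and 3.97 in CTR, 3.93 after 8 h, 4.17 after 12 h and 4.59 after 24 h on slide 1. The overlapping probe A_73_P501988 read 4.10, 4.17, 4.30 and 4.66 on slide 2, and 4.24, 3.97, 4.14 and 4.70 on slide 1, in the same order of arrays. The range over the 8 arrays was thus 0.65 with the first probe and 0.73 with the second, no neighbouring step exceeded 2 spot errors, and the highest level of both was at 24 h, or at 4 h with the median and normexp scalings. At 30 min the change from CTR was 0.27 with the first probe and -0.15 with the second, each with an error of 0.30. At 4 h it was 0.32 and 0.06, between 0.15 and 1.41 with the first probe and between -0.14 and 1.15 with the second over all scalings.

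Among the antiviral effectors, ISG15, a ubiquitin-like protein that is conjugated to other proteins, was detected on every array. On slide 2 its level (A_73_P122741) was 6.96 after 30 min, 6.75 after 2 h, 4.58 after 4 h and 4.58 after 16 h, and on slide 1 it was 3.87 in CTR, 3.59 after 8 h, 3.33 after 12 h and 5.21 after 24 h. ISG15 was 3.09 ± 0.30 (8.51-fold) higher than CTR at 30 min and 2.87 ± 0.33 (7.33-fold) at 2 h. The 24 h array shared its slide with CTR, and there ISG15 was 1.33 ± 0.34 (2.52-fold) higher, which passes 2-fold and not 3-fold (0.90 to 1.43 over all scalings). Against the 16 h array of slide 2, the 30 min level was 2.38 ± 0.47 higher and the 2 h level 2.17 ± 0.49 higher, and the 4 h level differed by 0.0012 ± 0.48.

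The ISG15 probe left out for the dark patch, A_73_119493, read 6.72 after 30 min, 6.01 after 2 h, 3.82 after 4 h and 3.82 after 16 h, and on slide 1 it read 2.54 in CTR, 3.22 after 8 h, 2.98 after 12 h and 4.75 after 24 h. Bright spots near it were 0.87 (log2) darker in CTR than on the other arrays, and with this probe the 24 h change was 2.20 (4.60-fold). With both probes the highest levels were those of 30 min, 2 h and 24 h, although 4 h passed 24 h with the median scaling of A_73_P122741.

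IFIT2, which binds foreign RNA and blocks its translation, was detected at 30 min (2.96) and 2 h (2.80) and on no other array. Its dim spots read -4.04 after 4 h and -1.87 after 16 h on slide 2, and -2.51 in CTR, -2.68 after 8 h, -3.36 after 12 h and -2.08 after 24 h on slide 1. At 30 min IFIT2 was at least 11.6-fold higher than CTR, at least 9.80-fold higher than the 16 h array and at least 26.6-fold higher than the 4 h array of its own slide. For 2 h these bounds were 10.5-fold, 8.81-fold and 23.9-fold. The spot of IFIT2 lay where bright neighbours were 0.32 (log2) darker in CTR.

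MX1, a dynamin-like GTPase that traps viral nucleocapsids, had 2 probes that were detected on all 8 arrays and 1 that was dim on 7. With A_73_P110771 the level on slide 2 was 4.14 after 30 min, 3.64 after 2 h, 2.55 after 4 h and 3.05 after 16 h, and on slide 1 it was 2.53 in CTR, 1.98 after 8 h, 2.15 after 12 h and 3.18 after 24 h. With A_73_103867 it was 3.26, 3.05, 1.89 and 2.86 on slide 2 and 2.32, 1.15, 1.61 and 3.12 on slide 1, in the same order of arrays. At 30 min the change was 1.60 (3.04-fold), which just passes 3-fold, with the first probe and 0.94 (1.92-fold) with the second, so the probes disagree on the call. The error of 0.30 for both, borrowed from CTR, is larger than the margin by which the first probe passes. At 2 h both were under 3-fold (1.11 ± 0.33 and 0.74 ± 0.33), and the first passed it with 2 other scalings. The third probe, 28721 bases away, was detected only at 2 h, with a level of -1.55 below the detection limit of CTR, and gives no fold.

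IFI6, a mitochondrial protein that inhibits apoptosis, lay below its CTR level on the 2 h and 4 h arrays under every scaling tried. At 30 min it lay below CTR with the deposited values, whose difference from CTR is the same under every scaling. With the scanner intensities of the 30 min array IFI6 was called higher instead. On slide 2 its level (A_73_P037521) was 4.33 after 30 min, 3.93 after 2 h, 3.77 after 4 h and 4.60 after 16 h, and on slide 1 it was 4.97 in CTR, 5.67 after 8 h, 4.60 after 12 h and 5.35 after 24 h. The change from CTR was -0.63 ± 0.30 for 30 min, -1.04 ± 0.33 for 2 h and -1.20 ± 0.32 for 4 h. The medians over all detected probes were -0.22, -0.41 and -0.18, and none of the changes reached 3-fold. Over all scalings the 2 h change lay between -1.07 and -0.33 and the 4 h change between -1.36 and -0.11. Bright spots near this probe were 0.90 (log2) darker at 16 h than on the other arrays. The second IFI6 probe was dim on all arrays.

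RSAD2, or viperin, a radical SAM enzyme that makes an antiviral nucleotide, had 1 of its 2 probes detected, on the 2 h array, with a level of -1.17. Its 30 min level from the deposited values was higher, -0.91, but under the limit of 0.24 required there, although the spot was well above background in the scanner file. Both levels lay below the detection limit of CTR (-0.59), so no fold can be given. The other RSAD2 probe and the single probe of MX2, a relative of MX1 in the same gene cluster, were not well above background on any array, which sets no more than an upper limit on their levels.

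**Figure D3:**
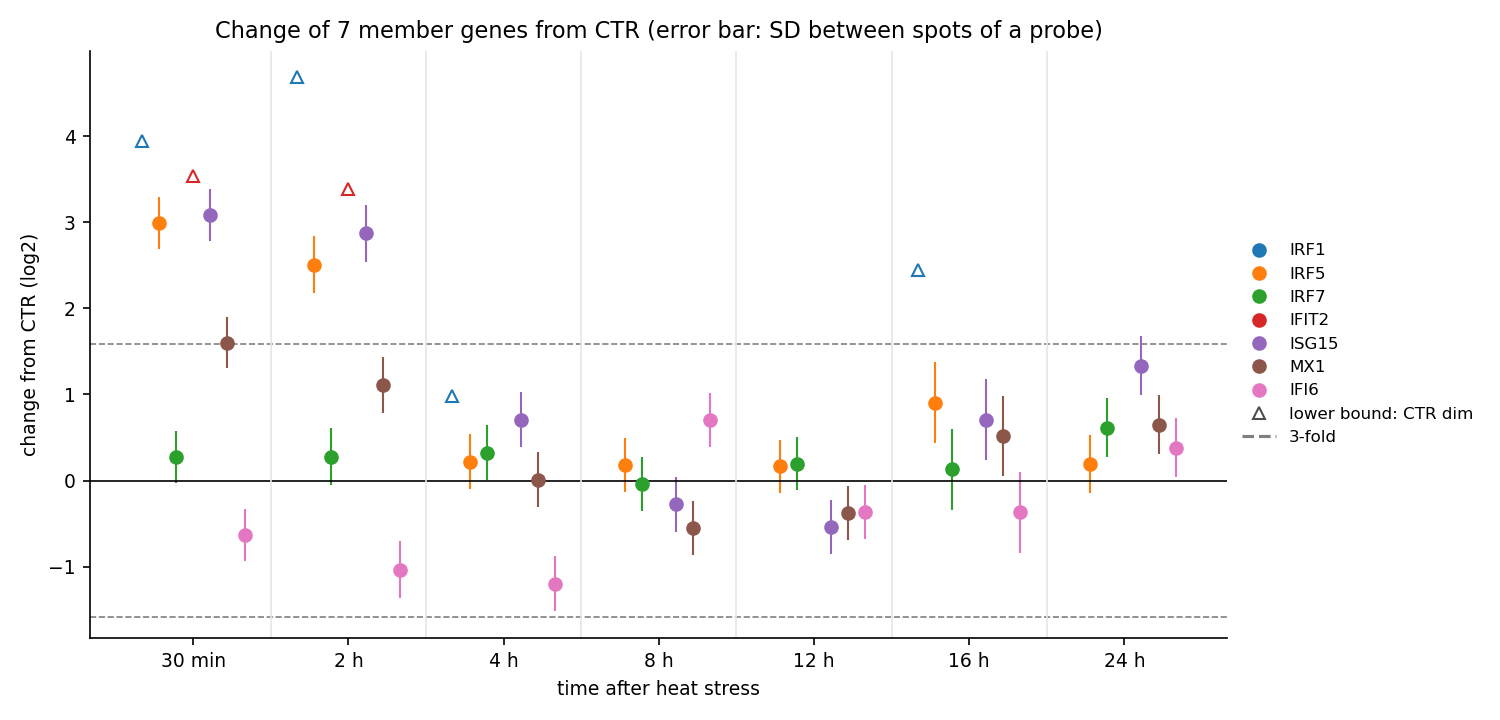
Change from CTR (y axis, log2) of 7 member genes at the 7 times (x axis), 1 probe per gene, as a filled point with the SD between spots as error bar (that of CTR for the 30 min array) where both arrays were detected, and as an open triangle for a lower bound where CTR was dim. The dashed lines mark 3-fold, passed at 30 min by IRF1, IRF5, IFIT2, ISG15 and MX1, at 2 h by the first 4, and at 16 h by IRF1.

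On slide 1, the 24 h array was compared with the 8 h and 12 h arrays, which had similar leukocyte sums (22.2, 18.1 and 15.5). ISG15 was 1.61 ± 0.35 lower at 8 h and 1.87 ± 0.35 lower at 12 h than at 24 h, both past 3-fold. Over all scalings these differences lay between -1.76 and -1.01 and between -1.87 and -1.20, under 3-fold with the median and normexp scalings. MX1 was 1.98 ± 0.35 lower at 8 h and 1.51 ± 0.35 lower at 12 h with A_73_103867, and 1.20 and 1.03 lower with A_73_P110771. The 8 h difference of A_73_103867 passed 3-fold, but not with the median (-1.37) or normexp (-1.51) scaling, and the 12 h difference of A_73_P110771 was -0.36 with the median. IRF5 differed from 24 h by -0.014 ± 0.35 after 8 h and -0.029 ± 0.35 after 12 h. IFI6 was 0.32 ± 0.35 higher at 8 h and 0.75 ± 0.35 lower at 12 h. With these 3 probes of ISG15 and MX1, the lowest levels of all 8 arrays were at 8 h and 12 h, except that with normexp the 12 h level of A_73_P110771 lay 0.04 above CTR, and that with the bright-probe percentile the 4 h level of A_73_103867 (-0.52 from CTR) lay below that of 12 h (-0.50). The heat shock list had its highest sum, 1202, on the 8 h array.

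**Figure D4:**
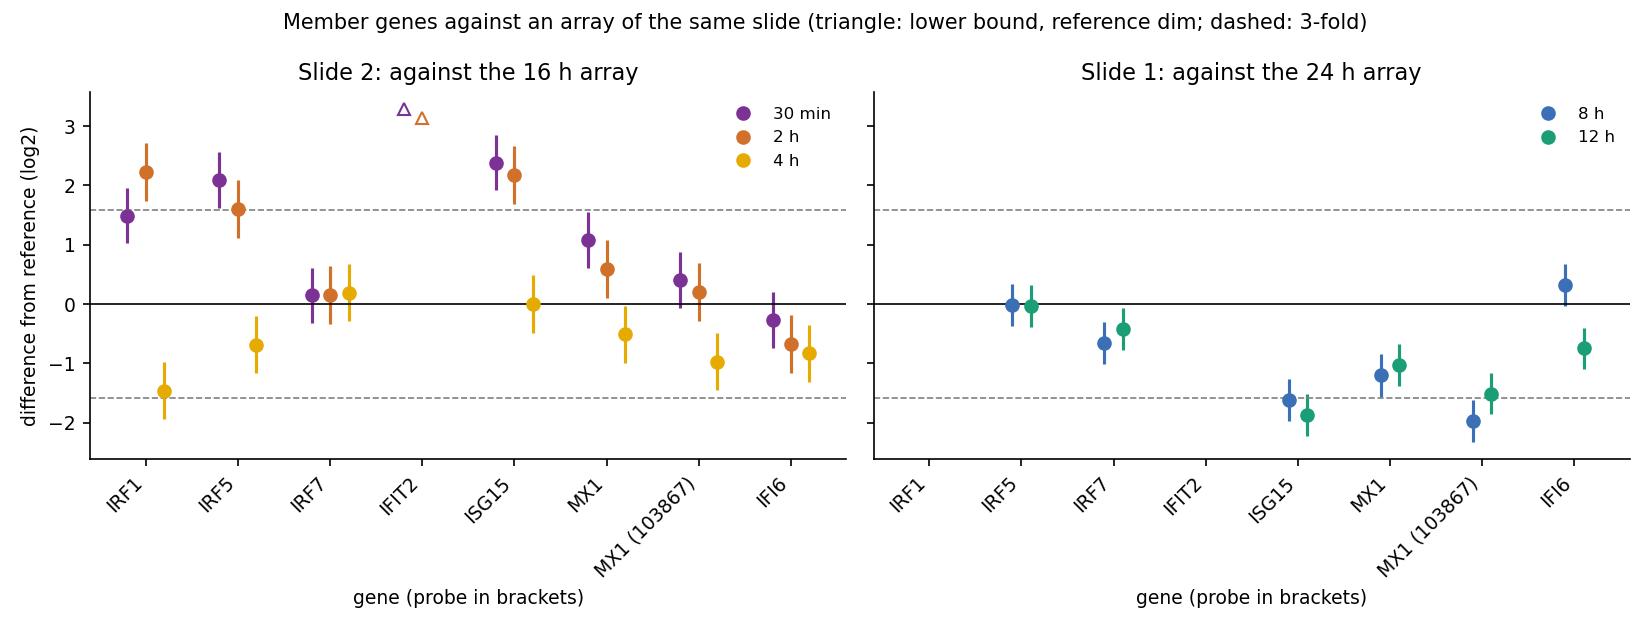
Difference of member probes from an array of the same slide (y axis, log2), with 30 min, 2 h and 4 h against 16 h on the left and 8 h and 12 h against 24 h on the right, 1 array each, error bars from the SD between spots (that of CTR for the 30 min array) and open triangles for lower bounds against a dim reference. A gene has no point where neither array was well above background or the bound was no difference. ISG15, IRF5 and IFIT2 lie above the dashed 3-fold line at 30 min and 2 h on the left, and on the right ISG15 lies below the lower line at 8 h and 12 h and 1 MX1 probe at 8 h.

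The 30 min levels came from the authors' deposited log2 values, since the scanner intensities of that array had lost its lower rows. In the upper rows, 4 of the probes used (ISG15, IFI6, RSAD2 and 1 of IRF7) were well above background in the scanner file, 2.70 to 2.86 (log2) above the levels given here, a shift that was nearly the same for all 4. The spots of IRF1, IFIT2, IRF7 (A_73_P501988) and MX1 (A_73_P110771) were not well above background in that file, and those of IRF5 and MX1 (A_73_103867) carried an outlier mark, so their 30 min values rest on the deposited values alone. Without the 30 min array, 4 of the 9 genes, all but MX1 of the 5, were still 3-fold higher at 1 or more times.

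The rest of the pathway was described in the same way, with the number of probes of each list beside the shares of all probes given above. None of 14 probes for 8 interferon genes was called at any time. IFNB3 and IFNK were the ligand genes with a detected probe. Only these 2 of the 14 probes were detected, on the 2 h array alone, and 8 of 25 ligand names tried were on the array. The lack of a call therefore does not show that the ligands were unchanged.

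Of 20 probes for 9 receptor and Janus kinase genes, 7 were higher at 30 min and 7 at 2 h. The count was 1 for 4 h and 3 for 16 h, and none was lower. The median change of the 8 probes detected in CTR and at 30 min was 1.54. IFNAR2, a chain of the type I receptor, was at least 13.2-fold higher at 30 min, with a bound of 9.87-fold for 2 h. IFNGR2, a chain of the interferon gamma receptor, rose from a level of 2.35 in CTR to 4.92 at 30 min and 4.99 at 2 h with a probe that was bright on all of them, and its partner IFNGR1 was at least 4.31-fold higher at 30 min. IL10RB, shared by the interferon lambda and interleukin 10 receptors, was 2.19 higher at 30 min and 2.06 at 2 h. The kinase TYK2 was 2.03 higher at 30 min and 1.90 at 2 h with A_73_107438, and JAK1 was 1.61 higher at 30 min. At 16 h, IFNGR2 was 1.63 higher with the same probe, and other probes of TYK2 (A_73_P084206, 2.27) and JAK1 (A_73_P104271, 1.84) than those above were higher.

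Of 24 probes for STATs and other IRFs, 3 were higher at 30 min and 2 at 2 h. IRF8, a myeloid and B cell factor, was at least 17.9-fold higher at 30 min, with a bound of 9.35-fold for 2 h. IRF2, a repressor that competes with IRF1, was 3.77-fold higher at 30 min, from a dim CTR spot. The median change of the 5 probes detected in CTR and at 30 min was -0.35.

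Of 37 probes for 18 sensors and adaptors, 2 were higher at 30 min and 2 at 2 h, all of TLR4, the receptor for bacterial lipopolysaccharide (at least 8.87-fold at 30 min). Of 15 probes for inhibitors, 1 was higher, SOCS1 at 30 min (3.80-fold, from a dim CTR spot). Of 13 probes for the immunoproteasome and CIITA, targets of interferon gamma, 4 were higher at 30 min, 4 at 2 h and 3 on the 16 h array. All were of the catalytic subunits PSMB8 (at least 19.5-fold at 30 min) and PSMB9 (17.1-fold at 30 min, from a dim CTR spot). Every called probe of this list was dim in CTR. The 4 probes detected in CTR had a median change of -0.12 at 30 min, -0.34 at 2 h and 0.55 at 16 h. TLR4, IRF8, PSMB8 and PSMB9 are also expressed in leukocytes, whose markers were high on the 30 min and 2 h arrays. At 16 h, where PSMB8 and PSMB9 were also called, the leukocyte sum was 63.3. The part of leukocytes in these calls was not tested.

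Of 86 probes for 49 other interferon-stimulated effectors, 7 were higher at 30 min, 9 at 2 h, 2 on the 4 h array and 9 on the 16 h array. In this list 2 probes were lower at 8 h and 1 at 16 h. IFITM2, a membrane protein that blocks virus entry, was at least 85.2-fold higher at 30 min with its probe A_73_P056681. The bound was 103-fold for 2 h, 6.77-fold for 4 h and 51.4-fold for 16 h, and its relative IFITM3 was 2.31 higher at 2 h from a CTR level of 3.95. Genes of this family resemble each other in sequence, and the probes may read more than 1 of them. LGALS3BP, a secreted glycoprotein, was 2.39 higher at 30 min and 2.61 at 2 h, and also on the 16 h array (2.12). At 16 h IFI27, an interferon alpha-induced mitochondrial protein, was 2.93 higher and the chemokine CXCL10 at least 5.68-fold higher. XAF1, which promotes apoptosis, was 1.60 lower at 8 h and at least 9.76-fold lower at 16 h. The other 6 called genes of this list were UBA7, TRIM25, UBE2L6, IDO1 and CXCL9, all higher, and OAS1Y, which was lower. The change of OAS1Y at 8 h was -1.70, with a probe detected on both arrays. The median change of the probes detected in CTR and at the later time was 0.50 at 30 min and 0.07 at 2 h.

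**Figure D5:**
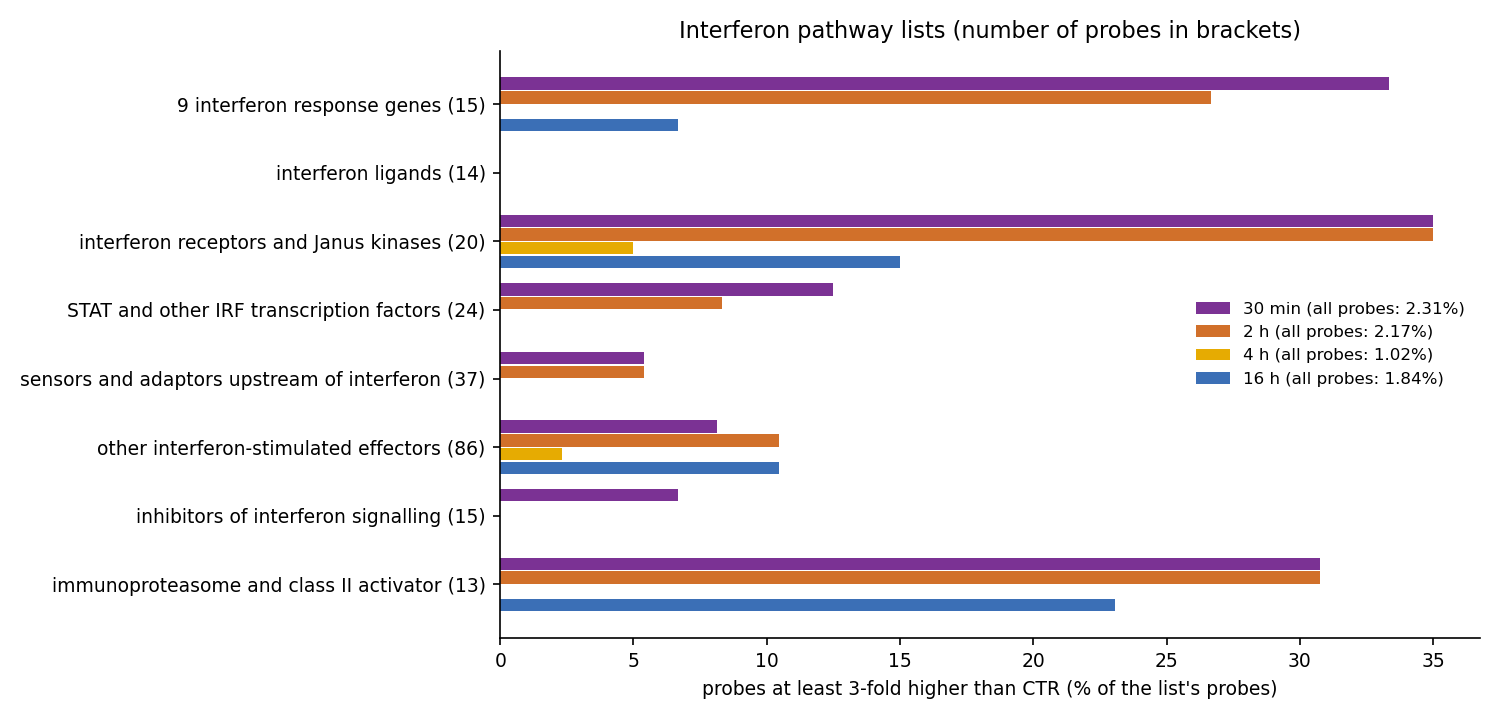
Percent of the probes of each interferon pathway list that were at least 3-fold higher than CTR (x axis) at 30 min, 2 h, 4 h and 16 h, with the number of probes of the list in brackets and the percent of all probes in the legend. The 9 interferon response genes, the receptors with their kinases and the immunoproteasome list have the longest bars at 30 min and 2 h. The ligands have none, but only 2 of their 14 probes were detected on any array.

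The genes most like ISG15, the member with the widest range among those detected on at least 6 of the 7 arrays with scanner values, were searched among 9525 probes by Pearson's r over the 8 arrays. PLK3 (r = 0.98), GRINA (0.97), TMEM120A (0.96), MX1 (0.96, A_73_P110771) and ACLY (0.95) came first. These r describe 8 points that share their arrays, slides and cultures. PLK3, a stress-induced kinase, was 1.96 higher at 2 h and 0.34 higher at 24 h, and ACLY, which makes acetyl-CoA for fatty acid synthesis, was 1.28 higher at 2 h.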

How the data were processed

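RNA of 8 conditions was hybridised to bovine 4x44K arrays with 1 colour, 1 array each. The authors read the spots with Feature Extraction 9.5.3.1 and deposited processed intensities, which were not scaled between arrays. The log2 values the authors deposited were normalised to the 75th percentile and centred per probe, so only their differences between arrays were used. Here intensities were taken to log2 and the 75th percentile over 43653 probes was subtracted, after leaving out outlier-marked spots and averaging those of 1 probe. No member probe had more than 1 spot. The 30 min level was the CTR level plus the deposited difference, and counted as detected where it reached the detection limit of every other array. The error came from 16 probes with at least 3 bright spots (for 30 min, from those of CTR), and changes were called at 3-fold. The precision is limited by the number of arrays. Python 3.11.15, pandas 2.3.3, R 4.3.3 and limma 3.58.1 (normexp, offset 50) were used, and the call was tested on simulated data. The alternatives were other scalings, background correction, filters, probes, cutoffs and reference arrays. All 9 members were named with every probe, and of the other lists up to 6 genes with the largest calls, along with the 5 genes most like the member of widest range. PTPRC, CSF1R, CD48, CORO1A, CD3E and the further genes given by name only were named after their values were seen. The members and lists were chosen with earlier results of these data known. By name, 8 members matched the buffalo RefSeq annotation NDDB_SH_1, all but IRF7. Promoter sequence was not analysed here. A called gene of the list of STATs and other IRFs is not reported here.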

Additional observations from a re-analysis of the deposited data

How the results depend on the processing

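Counts of the 9 genes past 3-fold were recomputed under 12 alternatives and against other reference arrays, 185 values in all. Of these, 166 were equal to the main count or within 1.5 times of it. The 166 compare numbers and not gene names. They include counts that were 0 under both settings, and the 30 min counts under the scalings. The deposited values were normalised to the same percentile as the main values, so they are a weak check. Under every scaling the 30 min change from CTR is the deposited difference. The 30 min counts under the scalings were thus largely fixed in advance and are no check. Requiring both arrays to be well above background left 3 genes at 30 min, 2 at 2 h and 3 at any time, and 0 on the 16 h array, by construction without IRF1 and IFIT2. At 4 h, the median scaling gave 2 genes higher, and the deposited values and the measured values without floor or filter gave 1, IRF1. At 24 h, ISG15 (1 gene) was higher with the dark patch kept or at 2-fold. Lower genes numbered 2 at 2 h (RSAD2, IFI6) and 1 at 4 h (MX1) without floor or filter, and at 2-fold 1 at 2 h, 1 at 4 h (both IFI6) and 1 at 8 h (MX1). The scanner intensities at 30 min gave 2 genes lower (MX1, IRF7) and 4 higher (ISG15, RSAD2, IFI6 and again IRF7). Of these 4, only ISG15 was among the 5, although the count of 4 is among the 166. That array's 75th percentile rests on few lit rows. Without the 30 min and 2 h arrays 1 gene was left, an alternative added after seeing the data. With 16 h as the reference, 3 genes were higher at 30 min, and with 24 h as the reference, 2 were lower at 8 h and 1 at 12 h. The causes were not tested where the construction does not give them. The quantile, normexp and bright-probe scalings, kept outlier spots and 1 probe a gene moved no count against CTR beyond 1.5 times. For the scalings at 30 min this was largely fixed by the deposited differences. Counts against 16 h and 24 h were not recomputed under these settings, but with the median and normexp scalings neither ISG15 nor MX1 differed 3-fold from 24 h at 8 h or 12 h. No paired analysis was possible because each condition had 1 array.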
